A study of Mus musculus with 8 samples.

Results

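The protein folding and degradation machinery of the endoplasmic reticulum (ER) was followed in primary mouse vascular smooth muscle cells, the muscle cells of the vessel wall, with knockdown of the transcription factor gene Sox6 (4 libraries) and in control cells labelled WT (4 libraries). The libraries are titled sisox6-1 to sisox6-4 (knockdown) and nc-1 to nc-4 (control), and the labels do not spell out these names or name the reagent or its dose. The genes were 40 chaperones, isomerases, stress sensors and degradation factors, listed by name and required to have 10 or more counts in at least 4 libraries. All 40 met that requirement, of 30660 gene identifiers in the count table. Whether the 4 libraries of a group stand for different cultures or animals is not stated, so a p-value here reflects spread among libraries that could be purely technical.

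Secreted and membrane proteins are folded in the ER by chaperones of the Hsp70 and Hsp90 families, by the lectins calnexin and calreticulin, and by isomerases that form disulfide bonds or turn proline bonds. When unfolded protein accumulates, the sensors ATF6, IRE1 (Ern1) and PERK (Eif2ak3) start the unfolded protein response, which raises transcription of chaperone and degradation genes and restrains translation. ER-associated degradation (ERAD) draws misfolded proteins back into the cytosol for destruction. Smooth muscle cells that leave the contractile state are known to secrete much extracellular matrix, which is folded there.

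Sox6 itself had 2, 4, 0 and 0 counts in the knockdown libraries, against 6, 10, 6 and 4 counts in the control libraries. That is 0.0318 ± 0.0394 CPM (counts scaled to library size) in knockdown and 0.144 ± 0.0527 CPM in control cells (SD, n = 4 each, scaled to total counts), a level near the detection limit. The two-sided p was 0.0286 by exact permutation, the lowest possible with these group sizes. The Sox6 counts are all even, and both mates of a fragment may have been counted, so they may stand for fewer fragments. Total counts ran from 37604102 to 49393224 in knockdown libraries and from 41672921 to 48039788 in control libraries. Mitochondrial transcripts took 2.62 ± 0.145% of counts in knockdown and 2.20 ± 0.0328% in control libraries (SD, n = 4 each, exact permutation test, two-sided p = 0.0286). Ribosomal protein transcripts took 4.93 ± 0.139% in knockdown and 4.23 ± 0.0738% in control libraries (SD, n = 4 each, the same exact test and p). Neither share overlapped between the groups, and their part in the results was not tested. Of the markers of smooth muscle, Acta2 was abundant (949 CPM in knockdown and 1240.2 CPM in control cells). Myh11 was low (7.28 and 5.90 CPM, in the same order of groups) and Tagln was close to the detection limit (0.211 and 0.113 CPM). Of 9 smooth muscle markers tested, 4 fell and 0 rose: Acta2 (log2 fold change -0.39), Smtn (-0.38), Mylk (-0.47) and Des (-0.89). All 10 listed summed to 899 to 1142 CPM in knockdown and 1144 to 1435 CPM in control libraries, mostly from Acta2. All 7 markers of heart and striated muscle fell, with summed levels of 25.6 to 97.1 CPM in knockdown and 255 to 363 CPM in control libraries, and none was at 0. Summed mesothelial markers lay at 112 to 126 and 173 to 188 CPM, endothelial markers at 4.85 to 6.55 and 9.19 to 10.9 CPM, fibroblast markers at 1784 to 1955 and 2259 to 2425 CPM, and leukocyte markers at 34.9 to 39.9 and 33.3 to 38.2 CPM, knockdown before control in each. These sums hide members that went the other way. Of 7 fibroblast markers tested, 2 rose and 3 fell. Pdgfra averaged 78.3 CPM in knockdown and 38.6 CPM in control cells and rose (log2 fold change 1.02, edgeR adjusted p = 1.79e-07), as did Pi16 (1.08). Ly6a averaged 23.0 CPM in knockdown and 82.7 CPM in control cells and fell (-1.84, edgeR adjusted p = 1.21e-08). Dpt (-0.58) and Col1a1 (-0.34), which holds most of the fibroblast sum, fell too. Of 3 leukocyte markers tested, Cd68 rose (0.87) and 0 fell. Vwf, an endothelial marker, averaged 3.14 CPM in knockdown and 1.1 CPM in control cells and rose (1.51, edgeR adjusted p = 1.42e-05), while Kdr, Cdh5, Tek and Pecam1 fell. The part of these other cell types in the values below was not tested. In bulk RNA, fewer cells of a type and less RNA per cell cannot be told apart.

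Sox6 knockdown cells had lower transcript levels of most ER chaperones and disulfide isomerases, and higher levels of 4 of the 10 listed degradation factors. Of the 40 genes, 20 fell and 6 rose, and 14 did not pass an edgeR adjusted p of 0.05 over all genes tested. Of all 16150 genes tested, 51.5% passed, 26.0% as lower and 25.4% as higher. Among chaperones 11 of 15 fell and 0 rose, among isomerases 7 of 11 fell and 1 rose, among sensors 2 of 4 fell and 1 rose, and among ERAD genes 0 of 10 fell and 4 rose. Median log2 fold changes, knockdown over control, were -0.24 for chaperones, -0.25 for isomerases, -0.24 for sensors and 0.14 for ERAD genes, beside 0.02 for all genes tested. The changes were small. Only Hspa5 exceeded 1.5 fold among the members past the threshold, while 17.9% of all genes tested did so. Scaling to total counts instead of TMM moved the median of all genes tested to 0.12 and the members' split to 12 higher and 17 lower. Under it 8 chaperones fell and 1 rose, 7 isomerases fell and 3 rose, and 7 ERAD genes rose.

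**Figure D1:**
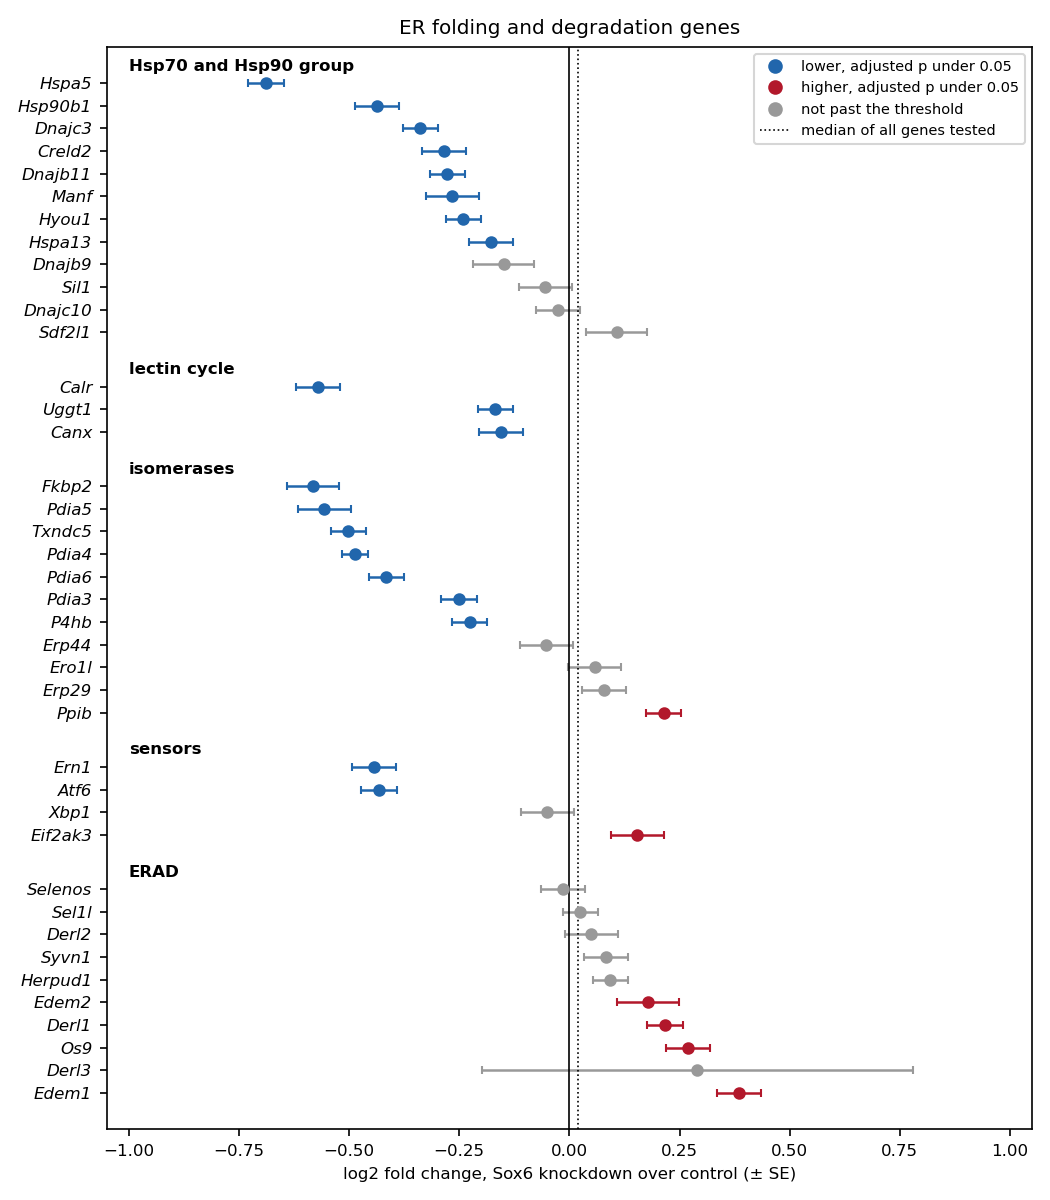
Log2 fold change of each of the 40 genes, Sox6 knockdown over control, with its standard error (4 libraries a group), grouped by class; colours mark the edgeR call. Hspa5 (-0.69), Fkbp2 (-0.58) and Calr (-0.57) lie farthest to the left and Edem1 (0.38) farthest to the right, and no ERAD gene is called lower.

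Promoters were searched because many of these genes fell together. The ER stress response element (ERSE), CCAAT and CCACG with 9 bases between them, is known to be bound by ATF6 together with the CCAAT factor NF-Y. Promoter windows of RefSeq (GRCm38.p6, 250 bases before to 50 bases after a transcription start) were found for 33 of the 40 genes. A full ERSE on either strand was present in 9 of the 33 (27.3%), and in 37 of 27025 genes with a window (0.137%). The element is known from ER stress response genes such as these, so its higher share among them is no result of the knockdown. Of the 16 genes that fell and had a window, 7 held a full ERSE, and of the 5 that rose, 0 held it. The other 2 of the 9 were the ERAD genes Syvn1 and Derl3, which did not pass the threshold. Only exact matches were counted, so a stretch that differs at its last base, as in Pdia3, was no match. The stretches found in these 9 genes are shown with the fixed bases in capitals and the spacer of 9 bases in lower case. They are read 5′ to 3′ in the motif's direction.
Hspa5: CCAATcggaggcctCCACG
Hsp90b1, distal: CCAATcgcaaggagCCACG
Hsp90b1, proximal: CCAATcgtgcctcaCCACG
Dnajc3: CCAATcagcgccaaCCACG
Creld2: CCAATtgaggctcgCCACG
Calr: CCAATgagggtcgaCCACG
Canx: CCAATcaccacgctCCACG
Pdia6: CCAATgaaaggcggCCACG
Syvn1: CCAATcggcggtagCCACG
Derl3: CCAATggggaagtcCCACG
The element ran in the gene's direction in Hspa5, Dnajc3, Canx, Pdia6, Syvn1 and the distal copy of Hsp90b1, and against it in Creld2, Calr, Derl3 and the proximal copy of Hsp90b1. Its first base in the gene's direction lay 65 bases before the start in Hspa5, 105 in Dnajc3, 98 in Pdia6, 145 in Canx, 162 in Calr, 126 in Creld2, and 212 and 107 in Hsp90b1. The 9 genes with the element had a median log2 fold change of -0.34 and a range of -0.69 to 0.29. The 24 with a window and no match had a median of -0.04 and a range of -0.58 to 0.38, and 9 of them fell and 5 rose. These 2 sets differ in class. By class, the element stood in 4 of 8 genes of the Hsp70 and Hsp90 group with a window and in 2 of 3 of the lectin cycle. It stood in 1 of 10 isomerases, 0 of 3 sensors and 2 of 9 ERAD genes. Element and class were not separated. Outside the members, 28 genes held an ERSE, of which 9 were tested, 3 fell and 2 rose, with a median of -0.02. The shorter variant ERSE-II, ATTGG and CCACG with 1 base between them, stood in the windows of Dnajb11 and Herpud1 and in 0.0444% of all genes with a window. A core of the unfolded protein response element, TGACGTGG, stood in 1 of 3 windows of Txndc5 and in 0.714% of genes. Both were searched on either strand, and ERSE-II shares its CCACG with ERSE. A match describes letters and does not show binding, and a part of ATF6 in the falls was not tested.

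The windows of the gene that fell most and of the gene that rose most follow, on the gene's strand, with the ERSE in capitals.
Hspa5 (chr2:34771840-34772139, plus strand): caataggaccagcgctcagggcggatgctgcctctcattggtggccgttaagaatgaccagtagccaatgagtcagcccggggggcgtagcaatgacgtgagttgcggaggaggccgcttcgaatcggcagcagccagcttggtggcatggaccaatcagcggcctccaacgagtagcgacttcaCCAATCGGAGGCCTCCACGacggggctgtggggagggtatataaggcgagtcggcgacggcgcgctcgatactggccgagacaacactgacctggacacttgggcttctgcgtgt
Edem1 (chr6:108828391-108828690, plus strand): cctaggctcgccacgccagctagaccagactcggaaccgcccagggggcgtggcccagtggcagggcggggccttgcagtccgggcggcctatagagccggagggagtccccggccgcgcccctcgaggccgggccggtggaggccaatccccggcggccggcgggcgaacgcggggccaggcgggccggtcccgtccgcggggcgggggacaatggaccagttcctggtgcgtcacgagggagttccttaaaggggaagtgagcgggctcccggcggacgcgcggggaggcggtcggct
The Edem1 window held none of the 3 motifs.

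Chaperones of the Hsp70 and Hsp90 group were lower in knockdown cells in 8 of 12 cases, led by the master chaperone BiP. Hspa5, which encodes BiP (mm10 chromosome 2, 34771970 to 34777547), had 660.0, 700.1, 656 and 634 CPM in the knockdown libraries, against 1059, 1099, 1049 and 1064 CPM in the control libraries. All 4 knockdown libraries lay far below the lowest control, and the level fell by 38.0% (log2 fold change -0.69 ± 0.04 SE, adjusted p = 6.4e-09). Hsp90b1, the ER member of the Hsp90 family (chromosome 10, 86690209 to 86705509), had 465, 542, 482 and 478 CPM in knockdown, against 654, 648, 689 and 670.2 CPM in control libraries. Knockdown replicate 2 was the highest of its group and still below every control (-0.44 ± 0.05, adjusted p = 3.89e-06). Other genes overlap 15.7% of the exon length of Hsp90b1.

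The co-chaperones that hand substrates to BiP fell in part. Dnajc3, known as P58IPK, had 97.9, 107, 103 and 109 CPM in knockdown, against 130.3, 133, 131 and 132 CPM in control libraries (-0.34 ± 0.04, adjusted p = 9.38e-06). Dnajb11, known as ERdj3, had 104, 109, 108 and 111 CPM in knockdown, against 129, 129, 134 and 131 CPM in control libraries (-0.28 ± 0.04, adjusted p = 3.17e-05). In both genes the groups were apart. Creld2 (-0.29) and Manf (-0.27), lumenal proteins known to be induced by ER stress, fell as well, as did Hyou1 (-0.24), a nucleotide exchange factor and chaperone, and the Hsp70 relative Hspa13 (-0.18). The remaining partners did not pass: Dnajb9 (ERdj4) at -0.15, the exchange factor Sil1 at -0.06, the disulfide reductase Dnajc10 (ERdj5) at -0.03 and Sdf2l1, a partner of ERdj3, at 0.11. Dnajb9 passed without knockdown replicate 4 (-0.20, adjusted p = 0.0469). Sil1 and Dnajc10 changed sign under some alternatives, and Sdf2l1 passed as higher with total count scaling (0.21, adjusted p = 0.0156). Hspa13 no longer passed under total count scaling (-0.08, adjusted p = 0.263) or when both libraries numbered 1 were omitted (-0.12, adjusted p = 0.0945).

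All 3 genes of the lectin cycle, which holds glycoproteins in the ER until they are folded, were lower in knockdown cells, calreticulin by most. Calr (chromosome 8, 84841850 to 84846934) had 847, 812, 852 and 791 CPM in knockdown, against 1184, 1326, 1188 and 1207 CPM in control libraries. The groups were far apart (-0.57 ± 0.05, adjusted p = 1.59e-07). Canx, the membrane-bound partner calnexin, had 505, 572, 538 and 515 CPM in knockdown, against 595, 571, 622 and 584 CPM in control libraries, so that knockdown replicate 2 overlapped the lowest control (-0.16 ± 0.05, adjusted p = 0.0114). Uggt1, which re-tags glycoproteins that are not yet folded, had 156, 159, 169 and 159 CPM in knockdown, against 179.9, 175, 188 and 179 CPM in control libraries, with no overlap (-0.17 ± 0.04, adjusted p = 0.00282). With total count scaling the calls of Canx (-0.05, adjusted p = 0.377) and Uggt1 (-0.07, adjusted p = 0.201) were lost. Upper quartile scaling (-0.12, adjusted p = 0.0561) also lost the Canx call. So did leaving out, in both groups, the libraries numbered 1 (-0.13, adjusted p = 0.0711), 3 (-0.14, adjusted p = 0.0505) or 4 (-0.15, adjusted p = 0.0526).

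Disulfide isomerases fell while the oxidase that recharges them did not pass the threshold. Pdia4 (ERp72) had 249, 248, 241 and 241 CPM in knockdown, against 343, 346, 339.6 and 343 CPM in control libraries. Its groups were tight and apart (-0.49 ± 0.03, adjusted p = 4.67e-08). Txndc5 (ERp46) had 184, 186, 172 and 183 CPM in knockdown, against 260.3, 251, 263 and 253 CPM in control libraries, again with no overlap (-0.50 ± 0.04, adjusted p = 1.02e-07). Pdia6, a BiP-associated isomerase known as P5, had 175, 178, 176 and 164 CPM in knockdown, against 233, 227, 235 and 229 CPM in control libraries (-0.42 ± 0.04, adjusted p = 6.17e-07). Pdia5 (-0.56), the calnexin partner Pdia3 (-0.25) and P4hb (-0.23), the founding isomerase and a subunit of collagen prolyl hydroxylase, fell too, each with groups that did not overlap. Ero1l, the oxidase that passes disulfide bonds to P4hb, stood at 0.06, the thiol-retention protein Erp44 at -0.05 and Erp29, which lacks the disulfide-forming site, at 0.08. With total count scaling Ero1l (0.16, adjusted p = 0.0399) and Erp29 (0.18, adjusted p = 0.00905) passed as higher.

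The prolyl isomerases Fkbp2 and Ppib moved in opposite directions. Fkbp2 had 61.4, 52.2, 54.0 and 55.7 CPM in knockdown, against 80.5, 91.4, 79.1 and 83.3 CPM in control libraries, and fell (-0.58 ± 0.06, adjusted p = 1.4e-06). Ppib, cyclophilin B, known for its part in collagen folding, had 105, 95.6, 101 and 103 CPM in knockdown, against 90.2, 87.5, 84.6 and 86.2 CPM in control libraries, and was the only isomerase that rose with TMM scaling (0.21 ± 0.04, adjusted p = 0.000675). Exons of Ppib overlap those of Snx22 on the other strand over 25.0% of their length, and exons of Erp29 overlap other genes over 26.4%. Over the 8 libraries Snx22 had 71 counts, 0.211% of those of Ppib. Naa25, which overlaps Erp29, had 17805 counts, 135% of those of Erp29. Whether the counting used strand is not given in the sources used here.

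Of the sensor genes, Atf6 and Ern1 fell, Xbp1 did not pass and Eif2ak3 rose slightly. Atf6, a membrane-bound factor that is cut free in the Golgi and activates chaperone genes, had 62.9, 67.1, 64.3 and 64.7 CPM in knockdown, against 85.5, 87.7, 87.3 and 89.1 CPM in control libraries (-0.43 ± 0.04, adjusted p = 5.48e-07). Ern1, which encodes the kinase and nuclease IRE1, had 49.97, 47.17, 47.4 and 50.09 CPM in knockdown, against 64.63, 69.13, 62.02 and 68.84 CPM in control libraries (-0.44 ± 0.05, adjusted p = 2.58e-06). Neither gene's groups overlapped, and the levels fell by 25.9% for Atf6 and by 26.4% for Ern1. Xbp1, the mRNA that IRE1 splices to make a transcription factor, had 54.3, 66.0, 58.4 and 55.3 CPM in knockdown, against 60.7, 62.4, 58.9 and 60.4 CPM in control libraries, with overlap (-0.05 ± 0.06, adjusted p = 0.487). Counts per gene do not separate its spliced from its unspliced form. Eif2ak3, which encodes the translation-restraining kinase PERK, had 37.4, 33.8, 31.9 and 32.5 CPM in knockdown, against 31.3, 30.1, 29.4 and 31.0 CPM in control libraries. The groups did not overlap, though the lowest knockdown library stood close to the highest control (0.15 ± 0.06, adjusted p = 0.0354). That call was lost without knockdown replicate 1 (0.10, adjusted p = 0.111) or 2 (0.16, adjusted p = 0.0561) and without control replicate 1 (0.16, adjusted p = 0.0531), 2 (0.15, adjusted p = 0.0763), 3 (0.14, adjusted p = 0.0856) or 4 (0.16, adjusted p = 0.0544). It was also lost when both libraries numbered 1 (0.12, adjusted p = 0.132), 2 (0.15, adjusted p = 0.105) or 3 (0.16, adjusted p = 0.0531) were omitted, and with no filter on low counts (0.15, adjusted p = 0.0583).

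Of the 10 ERAD genes, 4 rose, 0 fell and 6 did not pass, where 25.4% of all genes tested rose. Edem1, a mannosidase-like lectin that takes glycoproteins out of the folding cycle, had 102, 113, 111 and 108 CPM in knockdown, against 79.3, 80.8, 87.9 and 84.9 CPM in control libraries, with no overlap (0.38 ± 0.05, adjusted p = 8.76e-06). Os9, the lectin that brings trimmed glycoproteins to the membrane ligase, had 249, 219, 224 and 225 CPM in knockdown, against 192, 202, 172 and 196 CPM in control libraries (0.27 ± 0.05, adjusted p = 0.000759). Derl1, a derlin of the export channel, had 167, 173, 163 and 164 CPM in knockdown, against 145, 144, 138 and 149 CPM in control libraries (0.22 ± 0.04, adjusted p = 0.000347). Every knockdown library of these 3 genes was above every control. Edem2, known from human cells as the mannosidase that starts the trimming, had 107, 92.6, 89.2 and 89.9 CPM in knockdown, against 87.4, 87.8, 73.9 and 85.5 CPM in control libraries (0.18 ± 0.07, adjusted p = 0.0346). Its highest knockdown library was replicate 1 and its lowest control was replicate 3, and the call was lost without knockdown replicate 1 (0.12, adjusted p = 0.113), control replicate 3 (0.12, adjusted p = 0.105) or control replicate 4 (0.19, adjusted p = 0.0548). Omitting both libraries numbered 1 (0.13, adjusted p = 0.107) or both numbered 3 (0.15, adjusted p = 0.0646) lost it as well.

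The ubiquitin ligase at the centre of ERAD did not pass the threshold: its catalytic subunit Syvn1 (HRD1) stood at a log2 fold change of 0.08 and its adaptor Sel1l at 0.03. The scaffold protein gene Herpud1 stood at 0.09, Derl2 at 0.05 and Selenos, a selenoprotein that tethers the cytosolic ATPase VCP, at -0.01. With total count scaling Herpud1 (0.19, adjusted p = 0.00288), Syvn1 (0.18, adjusted p = 0.0062) and Sel1l (0.13, adjusted p = 0.00967) passed as higher. Herpud1 reached the threshold under upper quartile scaling too (0.13, adjusted p = 0.0232), as it did when knockdown replicate 1 was omitted (0.12, adjusted p = 0.0322). Derl3, a derlin known from secretory tissues, was near the detection limit, with 12, 44, 28 and 7 counts in knockdown and 16, 28, 10 and 16 counts in control libraries, and its change could not be resolved (0.29 ± 0.49, adjusted p = 0.647).

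**Figure D2:**
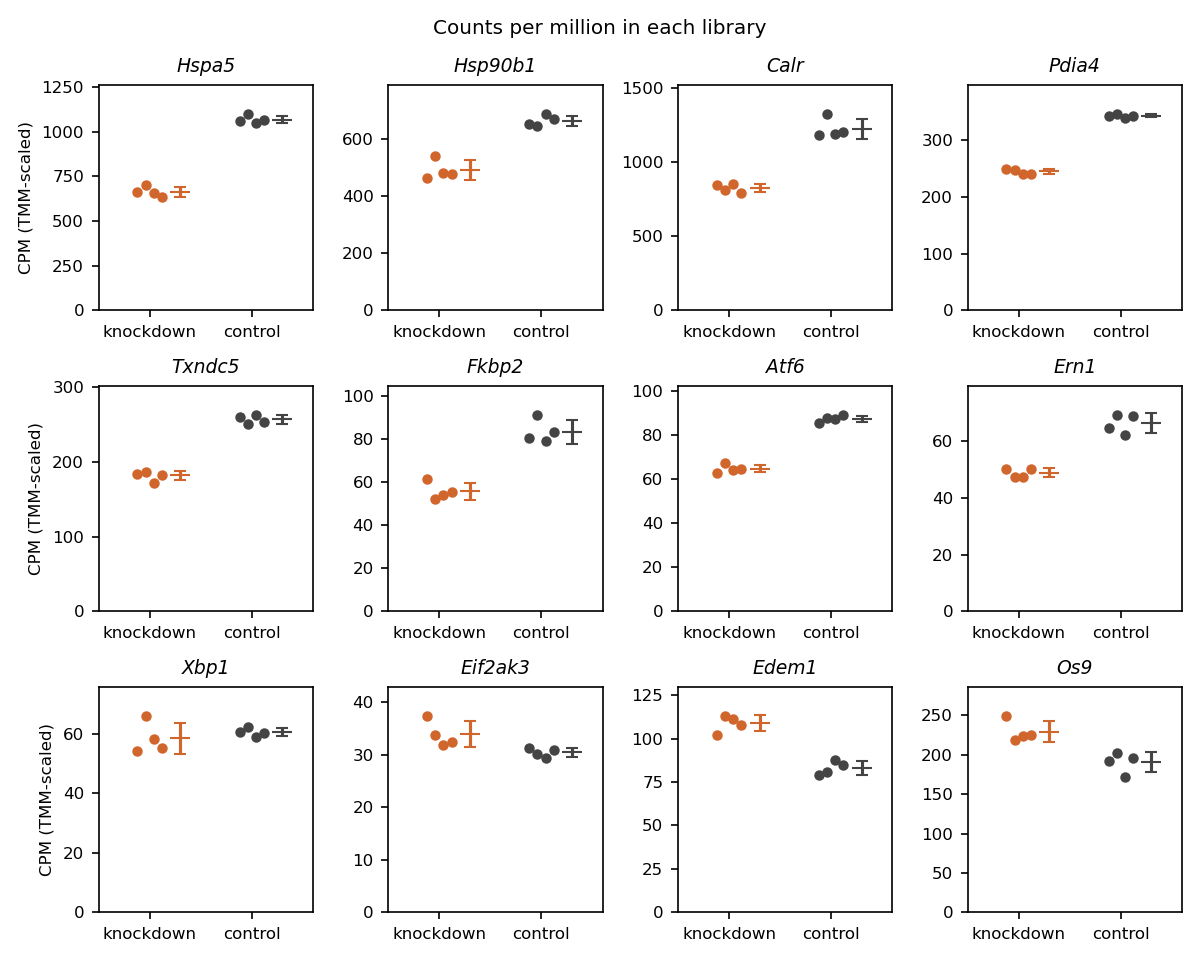
TMM-scaled CPM of 12 of the genes in each library, knockdown left of control; points are libraries and the bar beside them is the mean ± SD (n = 4). The groups overlap only for Xbp1 among the 12 genes, and Edem1, Os9 and Eif2ak3 are the ones higher in knockdown cells.

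Summed over each class, chaperone transcripts were less abundant in knockdown cells and those of the 10 ERAD members more abundant, relative to each other. The 15 chaperones held 3403 ± 101 CPM in knockdown and 4562 ± 57.0 CPM in control libraries, which is 0.746 of the control level. The isomerases held 2923 ± 87.4 and 3482 ± 29.7 CPM, a ratio of 0.839, and the sensors 206 ± 5.61 and 245 ± 5.72 CPM, a ratio of 0.841, with knockdown given before control. ERAD genes held 1012 ± 18.3 CPM in knockdown and 899.8 ± 29.9 CPM in control libraries, a ratio of 1.12. Within each library, ERAD transcripts came to 31.03, 28.66, 29.08 and 30.31% of the chaperone transcripts in knockdown cells, against 20.04, 19.69, 18.7 and 20.48% in control cells, and this share does not depend on how libraries are scaled. Isomerase transcripts came to 0.870, 0.862, 0.838 and 0.865 times the chaperone transcripts in knockdown cells, against 0.772, 0.757, 0.751 and 0.774 times in control cells. The 40 genes together took 0.754 ± 0.0188% of TMM-scaled counts in knockdown and 0.919 ± 0.00829% in control libraries. ERAD here means the 10 members only. The 20 further ERAD genes described below held 1709.9 ± 12.6 CPM in knockdown and 1768 ± 19.7 CPM in control libraries, a ratio of 0.967. These sums are weighted by the abundant genes, and no test was made on them.

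**Figure D3:**
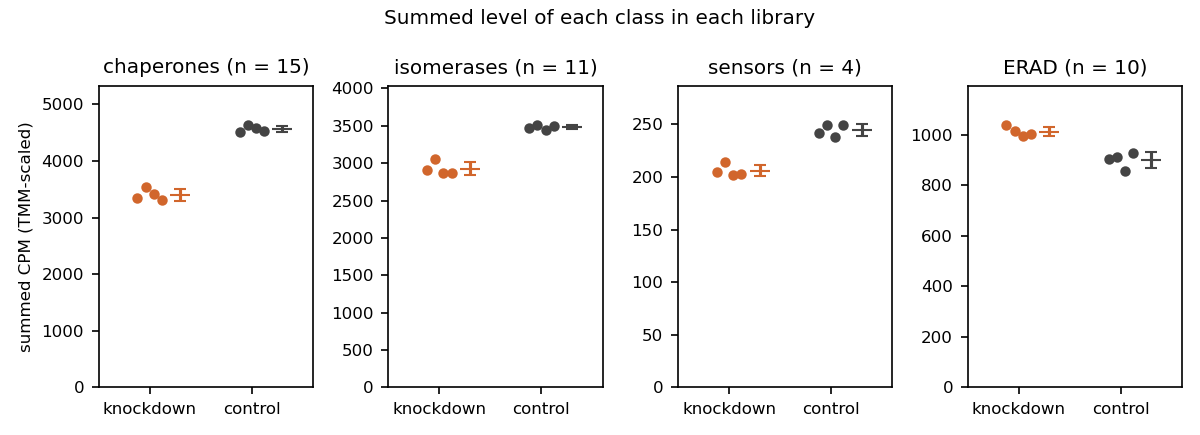
Summed TMM-scaled CPM of the chaperones, isomerases, sensors and ERAD genes in each library, knockdown left of control; bars are mean ± SD (n = 4). Chaperones lie between 3310.2 and 3537 CPM in knockdown and between 4507 and 4632 CPM in control libraries, and ERAD genes between 995 and 1037 CPM and between 857 and 927 CPM.

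The members spanned a wide range of levels, and 8 of the 10 most abundant fell. Per kilobase of exon, P4hb was highest (385 ± 16.9 CPM per kb in knockdown and 451 ± 14.1 in control cells), followed by Calr (287 ± 10.1 and 426 ± 23.3), Pdia3 (214 ± 7.51 and 254 ± 7.16), Hspa5 (157 ± 6.54 and 252 ± 5.10) and Hsp90b1 (122 ± 8.49 and 165 ± 4.62), with knockdown before control. In control cells the levels of Pdia3 and Hspa5 differed by less than their spread, whereas in knockdown cells Pdia3 was the higher of the pair. Ern1 (5.95 ± 0.194 and 8.09 ± 0.421), Eif2ak3 (5.62 ± 0.408 and 5.05 ± 0.139) and Atf6 (7.02 ± 0.189 and 9.47 ± 0.157 CPM per kb) were among the 7 lowest. Of the 10 members with the highest level over both groups, 8 fell, Os9 rose and Ero1l did not pass. Of the 20 with the lowest level 8 fell and 2 rose, where 26.0% of all genes tested fell and 25.4% rose. Genes with more counts can pass at smaller changes, and no allowance was made for that here. Across the 40 genes, level per kb and log2 fold change had a rank correlation of -0.28, given as a description, since the genes share their libraries and the level enters both measures. Levels rest on the union of annotated exons, which is long for Erp29 (9060 bases), so its level per kb may be understated.

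**Figure D4:**
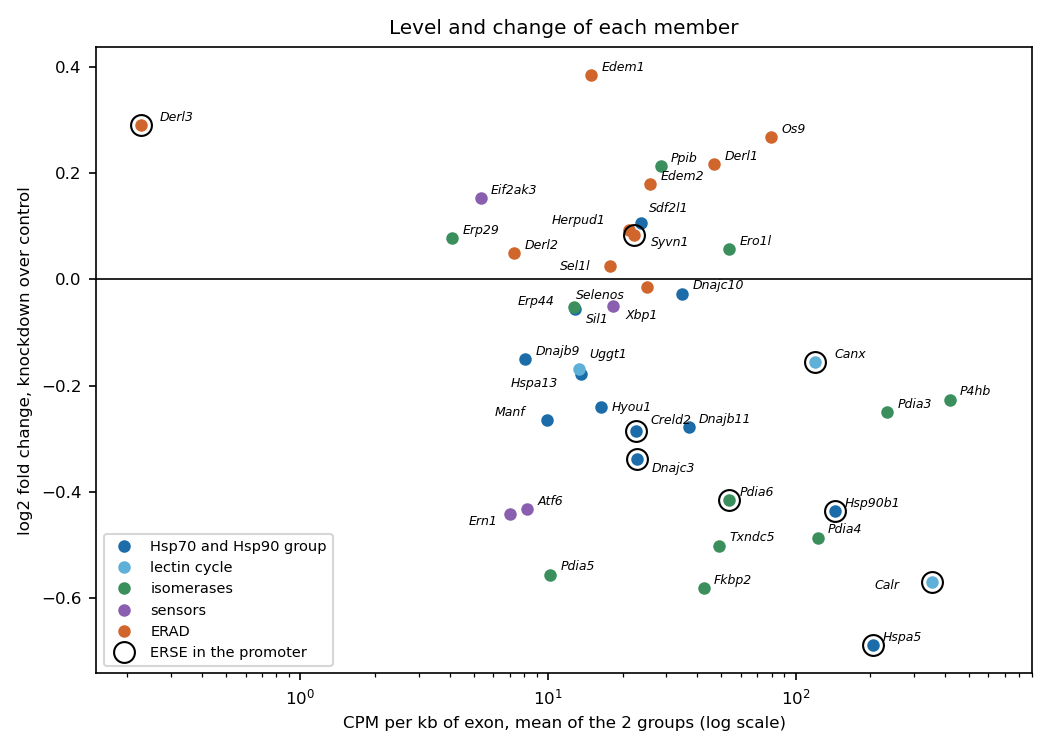
Log2 fold change, knockdown over control, against the mean level of each gene in CPM per kb of exon (log scale), coloured by class; rings mark genes with a full ERSE in the promoter window. Genes with a ring lie mostly below 0, with Hspa5 at -0.69, and the ringed genes above 0 are Syvn1 (0.08) and Derl3 (0.29).

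Of the 40 genes, 19 had all knockdown libraries below all controls, where 24.0% of all genes tested did. A further 6 had all knockdown libraries above all controls, where 22.8% of all genes tested did. In the other 15 the groups overlapped, as in Dnajc10, with 166 to 189 CPM in knockdown and 167 to 189 CPM in control libraries. Within the knockdown group, 18 of the 40 genes were highest in replicate 2, among them Hspa5, Hsp90b1, P4hb and Pdia3. Within the control group, 20 genes were lowest and 14 were highest in replicate 3.

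**Figure D5:**
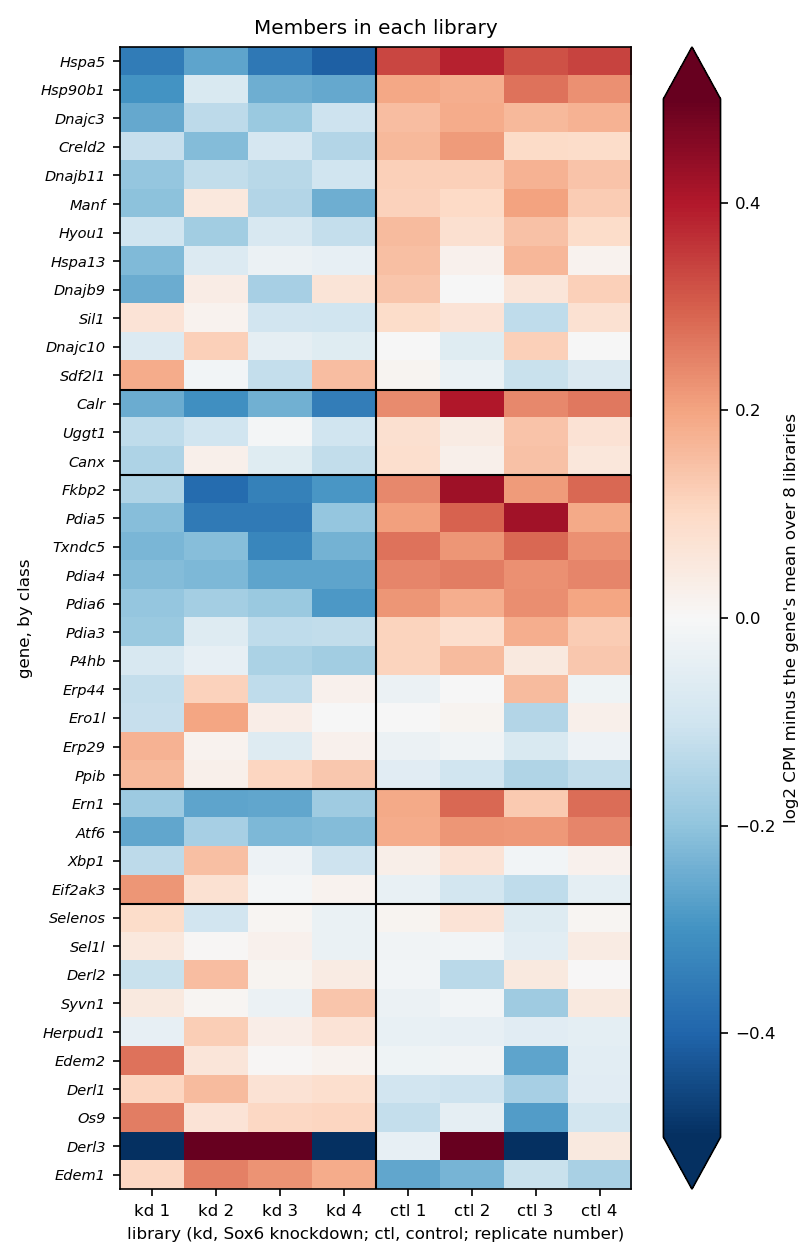
Log2 CPM of each gene minus its mean over the 8 libraries, knockdown columns left of control columns, genes grouped by class (from top: Hsp70 and Hsp90 group, lectin cycle, isomerases, sensors, ERAD). Hspa5, Calr, Fkbp2 and Pdia5 show the strongest contrast between the groups, and Derl3, with few counts, runs past the colour scale in both directions.

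Of 27 genes of import into the ER and N-glycosylation, 10 fell and 4 rose, including the signal peptidase subunits Spcs3 (72.1 ± 8.76 CPM in knockdown and 122 ± 5.02 CPM in control cells, log2 fold change -0.76) and Spcs2 (0.26) and the oligosaccharyltransferase subunits Rpn1 (-0.29) and Rpn2 (-0.30). This split turned with the scaling, to 8 lower and 9 higher with upper quartile scaling and to 4 lower and 13 higher with total counts. Of 20 genes of ER exit and retrieval, 11 fell and 1 rose, among them the coat subunit Sec24b (-0.41), the cargo receptors Tmed10 (-0.32) and Mcfd2 (-0.37), and Kdelr3 (-0.39), a receptor that returns escaped chaperones to the ER (7 lower and 4 higher with total counts). Median log2 fold changes were 0.00 for import and -0.13 for exit, beside 0.02 for all genes tested. Over all genes tested, 26.0% fell and 25.4% rose.

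Of 20 further ERAD genes, 4 fell and 5 rose, with a median of -0.00. Over all genes tested, 26.0% fell and 25.4% rose. With TMM scaling, the split of each list in this paragraph was near those shares. The ATPase that pulls substrates out of the membrane, Vcp, was at 321 ± 15.4 CPM in knockdown and 391 ± 15.4 CPM in control cells (-0.28, adjusted p = 9.77e-05), and its cofactor Nploc4 also fell (-0.24), while the other cofactor, Ufd1, rose (0.26). With total counts the split was 2 lower and 9 higher. Of 18 other redox enzymes and prolyl isomerases, 6 fell and 5 rose, with Fkbp11 at 14.4 ± 0.621 CPM in knockdown and 26.6 ± 2.70 CPM in control cells (-0.88, adjusted p = 2.1e-07), Fkbp9 at -0.42, the peroxiredoxin Prdx4 at -0.25 and Tmx3 at 0.32 (3 lower and 7 higher with total counts). Of 18 other folding factors tested, 6 fell and 4 rose, with Dnajc18 at 0.45, Cnpy4 at -0.39, the glucosidase Mogs at -0.30 and Tor1a at -0.24 (3 lower and 5 higher with total counts).

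Genes around the stress sensors and downstream of PERK did not move as a block. Of 15 genes, 7 fell and 2 rose (4 and 6 with total counts, 5 and 4 with upper quartile scaling). The shares over all genes tested were 26.0% lower and 25.4% higher. Atf4, the transcription factor translated when PERK is active, was at 367 ± 6.60 CPM in knockdown and 469.7 ± 16.4 CPM in control cells (-0.36, adjusted p = 2.78e-06), and its target Chac1 fell as well (-0.40). The membrane-bound factors Creb3l1 (46.5 ± 4.26 CPM in knockdown and 65.8 ± 5.33 CPM in control cells, -0.50) and Creb3l2 (-0.24), relatives of ATF6, fell too. Ddit3, which encodes the stress factor CHOP, was one of the pair that rose (0.37, adjusted p = 0.000859), the other being Atf6b (0.11, adjusted p = 0.0388), both named after their values were seen.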

How the data were processed

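Total RNA of primary mouse vascular smooth muscle cells was sequenced in 4 Sox6 knockdown and 4 control libraries. The values are counts of reads per gene as deposited by the authors, not normalized. The submitters' processing notes name mm10 and DESeq2. Neither they nor the labels name an aligner, a counting program or strandedness. Even values made up 72.0 to 74.2% of counts of 1 to 40, so both mates of a fragment may have been counted, and halved counts were tried. Symbols and positions came from GENCODE M21, which matched 30008 of 30660 identifiers and all 40 members.

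Tests were run with edgeR 4.0.16 (R 4.3.3): filterByExpr with a minimum count of 10 (16150 genes), TMM scaling, and the quasi-likelihood test over 8 libraries with no covariate. Benjamini-Hochberg adjusted p-values under 0.05 over all genes tested were called. CPM use TMM-scaled library sizes. The test was also run on counts simulated from the means and dispersions of these data with few genes changed. Such a run cannot check the scaling or the dispersions. Depth gives a floor (3 counts) of 0.0607 to 0.0798 CPM, which covers counting error only. Near-identical copies were searched with BLAST among GENCODE transcripts. Outside genes that overlap a member in the genome, the search found 1 copy, a processed pseudogene of Derl1 with 1.06% of its counts. The alternatives changed the scaling (DESeq2 size factors, upper quartile, total counts), the filter (3 others) or the test (DESeq2 1.42.0, limma-voom of limma 3.58.1), or used the replicate block, halved counts, stricter thresholds or fewer libraries.

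Members and lists were chosen with earlier results of these data known. Library values are given for Hspa5, the 4 sensors and up to 4 members of each class with the smallest p past the threshold, and up to 4 genes of each further list are named by the same rule, of which 1 is not reported here. Library values of Ppib and Derl3 were added after they were seen.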

Additional observations from a re-analysis of the deposited data

Results flagged for a closer look

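In 5 of 88 groups of 4 libraries, taken over the 40 genes and the class sums, a library stood far from the other libraries of its group, and chance gives about 1 in 20. Control replicate 3 was low for Sil1, at 40.4 CPM beside 46.2 to 47.0 CPM in the other controls, and low for Edem2, at 73.9 CPM beside 85.5 to 87.8 CPM. The same library was high for Erp44, at 48.5 CPM beside 42.6 to 43.4 CPM. Control replicate 2 was high for Calr, at 1326 CPM beside 1184 to 1207 CPM, while the knockdown libraries of Calr reached 852 CPM. Knockdown replicate 2 was high for Dnajc10, at 189 CPM beside 166 to 169 CPM.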

How the results depend on the processing

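Of the 26 members past the threshold, 21 kept their call and direction under all 22 alternatives other than a stricter threshold. The exceptions were Canx, Uggt1, Hspa13, Edem2 and Eif2ak3. With total count scaling 12 members were higher, and the class medians of log2 fold change moved to -0.14 for chaperones, -0.15 for isomerases, -0.14 for sensors and 0.24 for ERAD genes. With upper quartile scaling the median of isomerases was -0.21. The median of ERAD genes was 0.09 with limma-voom and 0.1 with the filter of 1 CPM, which left out Derl3. Against a fold of 1.5 (glmTreat), 0 members were higher and 1, Hspa5, was lower. Leaving out libraries gave 4 to 6 members higher, 18 to 21 lower and a median of 0.08 to 0.15 for ERAD genes.

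Signs turned for members that had not passed and did not pass then. With total count scaling these were Sil1 (0.05), Dnajc10 (0.07), Erp44 (0.05), Xbp1 (0.05) and Selenos (0.09), and with upper quartile scaling Dnajc10 (0.01) and Selenos (0.03). When libraries were left out, Selenos ran from -0.05 to 0.04, Dnajc10 from -0.1 to 0.02, Erp44 from -0.11 to 0.03, Derl3 from -0.14 to 0.61, Derl2 from -0.03 to 0.09 and Ero1l from -0.00036 to 0.11. The cause was not tested. No pairing by replicate number was seen: deviations of same-numbered libraries correlated at 0.00393, -0.0313, 0.0308 and 0.0568. Those of differently numbered libraries correlated at -0.067 to 0.0729. These values cannot tell whether same-numbered libraries shared a culture or day, which the labels do not state. With the replicate number as a block 6 members were higher and 20 lower.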
